A study of Mus musculus with 186 samples.

Results

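The proteasome genes described here are the 39 gene symbols in the deposited count table that consist of Psm, one of the letters a to d, and a number. The table held 28338 symbols in all. Psma genes encode the outer, alpha rings of the 20S core particle and Psmb genes its inner, beta rings. Psmc genes encode the ATPases of the 19S regulatory particle that caps the core, and Psmd genes encode its other subunits and 3 assembly chaperones (Psmd5, Psmd9 and Psmd10). The libraries came from mice labelled wild type (WT), heterozygous (HET) or knockout (KO) for Akap11, which encodes an anchoring protein for protein kinase A, at 4 or 12 weeks of age. RNA came from 6 areas dissected from frozen brain. These were the striatum (STR), the thalamus (TH), the substantia nigra (SN), the hippocampus (HP) and 2 parts of the cortex, prefrontal (PFC) and somatosensory (SSC). Each of the 3 genotypes was sampled in each area at both ages. There were 186 libraries in 36 groups, of which 30 groups held 5 and 6 groups held 6 libraries. Strain, sex, the construction of the mutant allele and whether libraries of different regions came from the same animals were not given in the sources used here, so p-values below measure the spread between these libraries.

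The proteasome degrades proteins that carry ubiquitin chains: the 19S particle binds the chain, removes it and unfolds the protein, and the 20S core cuts it. Psmb5, Psmb6 and Psmb7 are the catalytic subunits of the constitutive core, and Psmb8, Psmb9 and Psmb10 replace them in the immunoproteasome, which interferon induces and which is abundant in immune cells. Psmb11 is the catalytic subunit of the thymus and Psma8 an alpha subunit of the testis. When proteasome activity falls, the transcription factor NFE2L1 raises the subunit genes together through antioxidant response elements in their promoters. Protein kinase A, which Akap11 anchors, can phosphorylate the 19S subunits encoded by Psmc5 and Psmd11.

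Sequence upstream of the start site is shown for 4 genes. Psmb5 and Psmb6 hold the core of an antioxidant response element there, and Psmd10 and Psmd2 are the genes that moved in opposite directions with age. Each is the 250 bases before the RefSeq start site in the build GRCm38.p6, written 5′ to 3′ on the strand of the gene. Psmb5 lies at chr14:54617996-54618245 on the minus strand and Psmb6 at chr11:70525107-70525356 on the plus strand. Psmd10 lies at chrX:140956712-140956961 on the minus strand and Psmd2 at chr16:20651402-20651651 on the plus strand. Capitals mark TGACNNNGC in the Psmb genes and CCAAT, in either orientation, in Psmd10.
Psmb5: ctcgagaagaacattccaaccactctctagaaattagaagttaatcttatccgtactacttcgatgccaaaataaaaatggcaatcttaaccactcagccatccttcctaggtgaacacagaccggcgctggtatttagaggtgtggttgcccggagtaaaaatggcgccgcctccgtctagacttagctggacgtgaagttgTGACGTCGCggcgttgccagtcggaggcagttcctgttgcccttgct
Psmb6: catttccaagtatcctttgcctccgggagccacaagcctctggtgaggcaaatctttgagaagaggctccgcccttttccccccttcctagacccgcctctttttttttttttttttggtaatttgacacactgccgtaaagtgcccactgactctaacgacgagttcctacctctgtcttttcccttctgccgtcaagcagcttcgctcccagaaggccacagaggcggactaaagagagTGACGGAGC
Psmd10: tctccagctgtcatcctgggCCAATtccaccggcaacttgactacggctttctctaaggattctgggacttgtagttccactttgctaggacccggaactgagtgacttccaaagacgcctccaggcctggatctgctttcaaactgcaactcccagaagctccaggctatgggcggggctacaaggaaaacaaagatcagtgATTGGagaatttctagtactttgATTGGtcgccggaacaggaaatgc
Psmd2: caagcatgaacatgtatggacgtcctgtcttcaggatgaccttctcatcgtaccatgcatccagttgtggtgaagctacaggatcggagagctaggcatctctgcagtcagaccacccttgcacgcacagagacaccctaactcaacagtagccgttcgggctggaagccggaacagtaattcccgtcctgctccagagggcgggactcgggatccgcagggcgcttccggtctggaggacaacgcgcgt

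The RefSeq promoter table, which covers 250 bases before and 50 after a start site, held 34 entries for 32 of the 39 genes. TGACNNNGC, the core of the antioxidant response element, was searched on both strands and occurred in 5 of these 34 windows, those of Psmb5, Psmb6, Psmc6, Psmd12 and Psmd9, a share of 14.7% beside 12.4% of all 32851 windows. In Psmb5 the match started 47 bases before the start site and in Psmb6 9 bases before it. The core of the interferon response element, searched in the same way, occurred in 3 windows (Psmb3, Psmd4 and Psmd9) beside 3.44% of all. CCAAT, which can share end bases with a neighbouring TGACNNNGC, was found in 13 windows, or 38.2%, beside 37.4% of all. Psmd10 held it 3 times, 230, 47 and 24 bases before the start site. Psmd2 held none of the 3 motifs in the printed window.

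Libraries held 20794652 to 73344445 estimated counts. Akap11 was lower in KO than in WT in 12 of 12 comparisons within a region and age, by log2 fold changes of -4.30 to -3.65. It was called lower in HET in 10 of 12, with -0.99 to -0.69 over all 12. In 16 of the 96 libraries at 4 weeks and in 0 at 12 weeks, at most 5.55% of non-zero values were whole numbers, where every other library had at least 17.3%. The labels do not mark these 16 libraries (7 WT, 5 HET and 4 KO), which stood apart in the proteasome genes. The level used for this is the mean of log2(CPM + 1) over 34 constitutive genes, that is, all members except Psma8 and Psmb8 to Psmb11. CPM is a gene's count scaled by library size, with all libraries scaled together. In 15 of the 16 libraries this level was above every library of the same group outside the 16, and the difference from the mean of the others was 0.04 to 1.13 with a median of 0.24. Psmc5 was raised most, by a mean of 0.46 on the log2 scale and in 16 of 16 libraries. Psmb1 was raised by 0.41 and Psmb5 by 0.40. Psmd10 differed by 0.00 and Psmd9 by -0.06, so these chaperone genes did not share the shift on average. Psmb9, at -0.14, and Psmb8, at -0.12, were lower on average. The highest of all was the 4-week SN library labelled WT 92, at 7.37 where the other 5 WT libraries lay between 6.22 and 6.47. Its Akap11 level of 44.8 CPM was below the 197 to 245 CPM of the other WT libraries, below HET (97.8 to 139 CPM) and above KO (13.5 to 15.9 CPM), so it goes against its label. Other 4-week libraries had low markers of the region on their label. In SN, WT 92, WT 42, KO 44 and KO 91 had a mean log2(CPM + 1) of dopamine neuron markers of 2.58 to 4.19, where the others had 6.16 to 8.10. In TH, WT 913 and WT 914 had the lowest thalamic neuron markers, 7.88 and 8.06 where the others had 8.61 to 9.36. This gap was smaller than that in SN. These 6, the TH library WT 23 and 4 striatal libraries described with Psmb10 are called the doubted libraries. No marker value that sets WT 23 apart is given here. For many values that moved, results are also given without the doubted libraries or without the 16 above.

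**Figure D1:**
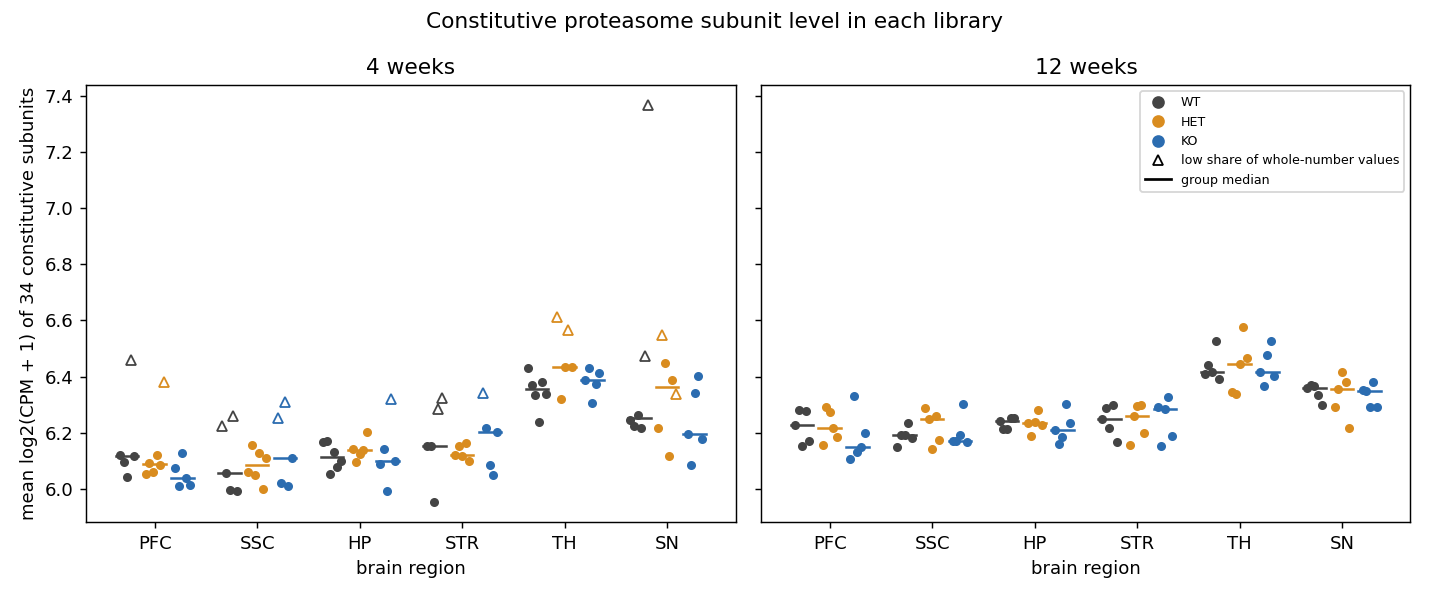
Mean log2(CPM + 1) of the 34 constitutive proteasome genes in each of the 186 libraries, by region, age and genotype. Each point is 1 library, lines are group medians and open triangles are libraries with few whole-number values. The 4-week SN library labelled WT 92 stands alone at 7.37, and 15 of the 16 triangles are above every filled point of their group.

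Per kilobase of transcript, the constitutive subunit messages had medians between 24.4 and 107 CPM over the 63 WT libraries, above every inducible one. Psmc5, an ATPase, had the highest median at 107 CPM per kilobase, followed by the catalytic Psmb6 at 91.2, the ATPase gene Psmc1 at 87.5, Psmb5 at 87.0 and Psmd2, a scaffold of the 19S base, at 84.8. The catalytic Psmb7 stood at 82.8, and Psma7, the alpha subunit that Psma8 replaces in testis, at 57.8. Psmd11, at 24.7, and Psma2, at 24.4, were the lowest of the constitutive genes whose products stay in the finished particle. The chaperones were lower, with Psmd5 at 12.0, Psmd9 at 8.73 and Psmd10 at 7.94. Among the inducible catalytic genes Psmb10 reached 16.1, while Psmb8 stood at 1.04 and Psmb9 at 0.581. Psma8, at 0.115, and Psmb11, at 0.0406, were barely detected. In several comparisons they fell below the filter on low counts. Psma8 was not tested between genotypes in PFC and STR at either age and in HP at 4 weeks, nor between ages in PFC and STR. Psmb11 was not tested between genotypes in TH and SN at either age and in STR at 12 weeks, nor between ages in TH. Between 37 and 39 genes were tested in each comparison.

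The constitutive genes varied together from library to library within a group. Over the 561 pairs of the 34 genes, deviations from the group mean had a median Pearson r of 0.79 across 186 libraries. This fell to 0.55 across the 170 libraries left without the 16 described above, and was 0.50 across the 90 libraries at 12 weeks. These values are descriptive, since all genes of a library share its depth, dissection and preparation. At 12 weeks the genes that followed the mean of the others most closely were Psmb1 (r = 0.88), Psmc5 (0.87), Psmc1 (0.86) and Psmb7 (0.86). Psmd5 (0.26), Psmc6 (0.33), Psmd11 (0.37) and Psmd10 (0.43) followed it least among the 34. Of the inducible genes, Psmb10 had 0.50, Psmb8 -0.15 and Psmb9 -0.31. Psmb9 had low counts, and the reason for its negative value was not tested. Libraries numbered 4 had the highest level in 12 of the 18 groups at 12 weeks (5 KO, 4 WT and 3 HET groups of 6 each).

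No proteasome gene passed the test between genotypes within a region and age. In edgeR's quasi-likelihood test with Benjamini-Hochberg adjustment over all genes, 0 of 458 gene comparisons of KO with WT and 0 of 458 of HET with WT passed an adjusted p of 0.05. Without adjustment, 20 and 17 of them were under 0.05. Of all genes, 2.91% to 17.9% were under it for KO and 1.65% to 16.3% for HET, depending on the comparison. The smallest adjusted p was 0.0781 for KO and 0.226 for HET. The background, the share of all genes called, was highest for KO in STR, with 3.35% at 4 weeks and 4.42% at 12 weeks. In the other regions it was near 0 for KO at 4 weeks, with 0.0125% in PFC, 0.0564% in SSC, 0.00609% in HP, 0.0128% in TH and 0.00617% in SN. At 12 weeks it was 0.0123% in PFC, 0.0252% in SSC, 0.00608% in HP, 0.0064% in TH and 0.0364% in SN. For HET at 4 weeks it was 0.00626% in PFC, 0.00627% in SSC, 0% in HP, 0.00648% in STR, 0.00639% in TH and 0% in SN. For HET at 12 weeks it was 0.00613% in PFC, 0.00629% in SSC, 0.00608% in HP, 0.0064% in STR, 0.0064% in TH and 0.00606% in SN. DESeq2 called 2 gene comparisons in KO, Psmb10 in STR at 4 weeks (adjusted p = 0.0189) and Psmd3 in STR at 12 weeks (adjusted p = 0.0306).

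The size of change that the constitutive genes showed was small. Outside SN at 4 weeks, their KO log2 fold changes lay between -0.25 and 0.24 and those in HET between -0.18 and 0.26. At 12 weeks the median standard error of a single gene was 0.05 to 0.06 in each region. In STR, where KO changed the most other genes, the median over members was 0.01 at 4 weeks and 0.00 at 12 weeks. At 4 weeks it was 0.13 without the doubted libraries and 0.06 without the libraries with few whole numbers. Psmb5, the chymotrypsin-like subunit, differed by -0.07 ± 0.09 (SE) in STR at 4 weeks and by -0.04 ± 0.06 at 12 weeks. Of the protein kinase A targets, Psmc5 differed by 0.10 ± 0.09 and -0.05 ± 0.07, and Psmd11, a lid subunit, by 0.03 ± 0.06 and -0.02 ± 0.06. For comparison, Psmb6 differed by -0.06 ± 0.09 and 0.01 ± 0.07, Psmb7 by 0.01 ± 0.09 and -0.03 ± 0.05, and Psma7 by 0.03 ± 0.07 and 0.10 ± 0.06.

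Where the median of the members did move at 4 weeks, the libraries with few whole numbers moved with it. In PFC, the median KO difference over the constitutive genes was -0.14. There 10 of 38 members were under an unadjusted p of 0.05, beside 15.1% of all genes. Without those libraries the median over members was -0.06. In TH, HET was higher by 0.11, with 14 of 38 members under 0.05 beside 16.3% of all genes, and by 0.03 without those libraries. In SN, the median over the constitutive genes was -0.34 in KO and -0.25 in HET. Without the library labelled WT 92 the median over members was -0.03 in KO and 0.07 in HET. It was -0.12 and 0.07 without the doubted libraries, and 0.04 and 0.07 without the libraries with few whole numbers. The heat map of fold changes shows these columns (KO in PFC, HET in TH, and KO and HET in SN, all at 4 weeks).

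**Figure D2:**
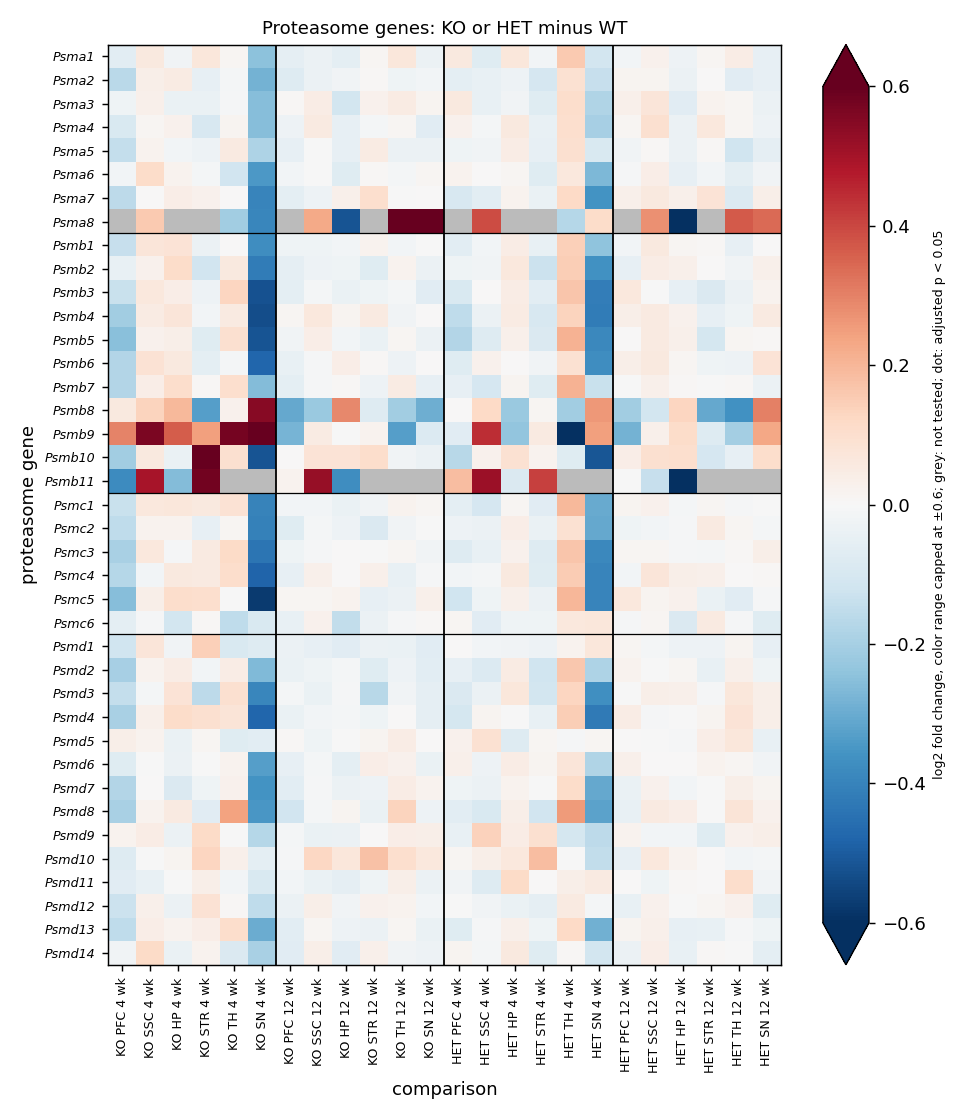
Log2 fold change of each proteasome gene in KO against WT and in HET against WT, by region and age, from edgeR. Genes run down the plot by family, columns are comparisons, colours are capped at ±0.6 and untested genes are grey. None of the cells passes an adjusted p of 0.05.

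Psmb10, the inducible trypsin-like subunit, had the largest fold change in STR at 4 weeks, with 0.91 ± 0.27 in KO against WT (adjusted p = 0.0781). In the 5 WT libraries its level was 3.79, 3.96, 4.31, 4.63 and 6.92 CPM. In KO it was 4.36, 5.33, 9.13, 11.1 and 14.4 CPM, and in HET 4.19 to 5.36 CPM. Of the KO libraries, 3 (51, 161 and 163) lay above all WT libraries, while KO 12 and KO 932 lay within the WT range. The same 3 KO libraries and WT 92, the highest WT library, also had the highest level of 8 markers of cortical and hippocampal excitatory neurons, a mean log2(CPM + 1) of 5.60 to 6.51 where the other striatal libraries had 1.78 to 3.75. In PFC at 4 weeks that score was 6.76 to 7.80 and Psmb10 stood at 16.8 to 23.6 CPM. Without the 4 libraries Psmb10 differed by 0.21 (adjusted p = 0.54), and with the score as a covariate by 0.42 (adjusted p = 0.099). Without the libraries with few whole numbers, which include WT 92, WT 914 and KO 12, it was called, at 1.27 (adjusted p = 0.0174), beside Psmc5 at 0.20 (adjusted p = 0.034) and Psmd4, a ubiquitin receptor, at 0.20 (adjusted p = 0.0447). These 3 of 38 members stood beside 7.37% of all genes called in that fit. At 12 weeks Psmb10 lay between 5.28 and 7.68 CPM in all 15 striatal libraries and the KO difference was 0.11 ± 0.11 (adjusted p = 0.726), with a score of 1.60 to 2.05. The part of such neurons in the 4-week result was not tested further.

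The difference in Psmb10 between STR and the other regions was itself past the threshold. In a fit over all 4-week libraries, its KO effect in STR exceeded the mean effect in the other 5 regions by 1.03 ± 0.22 (adjusted p = 0.00253). It was the 1 member called in that contrast, in which 3.52% of all genes were called and 4 of the 8 cortical markers were higher. Without the doubted libraries the difference was 0.27 (adjusted p = 0.389), and without STR KO 161 alone 0.79 (adjusted p = 0.0574). At 12 weeks 0 members were called, beside 3.11% of all genes. No member was called for a change of the KO effect with age within a region, where 0% of all genes were called in each of 6 tests.

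**Figure D3:**
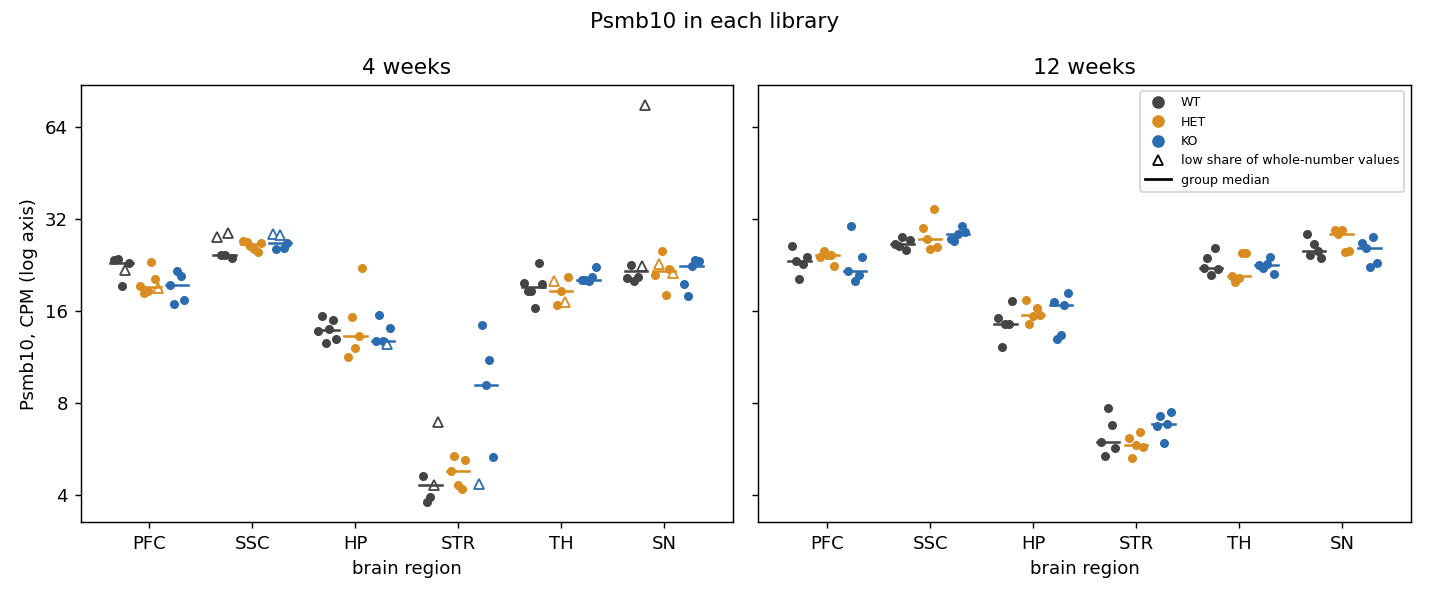
Psmb10 level in CPM, on a log axis, in each of the 186 libraries by region, age and genotype. Each point is 1 library, lines are group medians and open triangles are libraries with few whole-number values. STR is lowest at both ages, 3 striatal KO libraries reach 9.13 to 14.4 CPM at 4 weeks, and the SN library labelled WT 92 is at 75.5 CPM.

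Of the remaining members with the largest differences in STR, Psmb11 gave 0.58 ± 0.59 (adjusted p = 0.678) and Psmb8 -0.33 ± 0.24 (adjusted p = 0.52) at 4 weeks. The direction of Psmb11 turned to -1.35 without the doubted libraries and to -0.11 with the cortical score as a covariate, and Psmb8 stood at -0.73 without the doubted libraries. At 12 weeks Psmd10 gave 0.17 ± 0.09 (adjusted p = 0.347). Psmd3, a 19S lid subunit, gave -0.17 ± 0.05 (adjusted p = 0.0987) with the levels 137, 137, 138, 145 and 152 CPM in WT and 112, 129, 130, 132 and 136 CPM in KO. The lowest WT library of Psmd3, at 137 CPM, lay just above the highest KO library, at 136 CPM. Psmd3 was named for its large difference among 37 members tested, and 15.9% of all genes there were under an unadjusted p of 0.05. How many genes had no overlap between the groups was not counted.

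Averaged over the 6 regions, Psmb9 was higher in KO at 4 weeks. Its mean difference was 0.46 ± 0.13 (adjusted p = 0.0414), and it was the 1 member called beside 2.14% of all genes. By region the differences were 0.30 ± 0.26 in PFC, 0.57 ± 0.39 in SSC, 0.36 ± 0.23 in HP, 0.24 ± 0.30 in STR, 0.58 ± 0.36 in TH and 0.71 ± 0.31 in SN, all above 0 and none past the threshold alone. In SN the 6 WT libraries had 0.466, 0.529, 0.728, 0.815, 0.852 and 0.973 CPM and the 5 KO libraries 0.866, 0.951, 1.04, 1.31 and 1.75 CPM, which overlap. The call was lost with no filter on low counts (adjusted p = 0.0581), in limma-voom with a correlation between libraries of the same number (0.42, adjusted p = 0.177), and in 25 of 63 fits that left out 1 library (adjusted p from 0.0206 to 0.0866). It was kept without the doubted libraries (adjusted p = 0.0377). Of 17 genes on the list of interferon response and antigen presentation, which holds no proteasome member but includes Tap1, whose gene overlaps Psmb9, 7 were called higher in the same contrast and 0 lower. Of 11 microglia markers 0 were called and all had values below 0, with a median of -0.09. At 12 weeks 0 members were called, beside 1% of all genes.

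Several proteasome genes rose between 4 and 12 weeks, most often the chaperone gene Psmd10, while the scaffold gene Psmd2 fell. In WT, 1 member was called higher and 2 lower of 38 in PFC, beside 19.1% of all genes called in either direction. SSC had 7 higher and 1 lower of 39, beside 27.1%. HP had 11 and 0 of 39, beside 17.7%. STR had 10 and 0 of 38, beside 18.5%. TH had 12 and 2 of 38, beside 22.6%. SN had 0 and 2 of 39, beside 18.6%. The share of members called was thus above the background in HP, STR and TH, and at or under it in the other regions. The calls in SSC, HP, STR and TH were mostly higher, while 2 of 3 in PFC and 2 of 2 in SN were lower. The medians over members were 0.10 in PFC, 0.11 in SSC, 0.14 in HP, 0.10 in STR, 0.13 in TH and -0.21 in SN. All 16 libraries with few whole numbers were from 4 weeks. Libraries of 4 and 12 weeks carried separate numbers, and age and any batch of preparation cannot be told apart here. In bulk tissue, fewer cells of a type and less RNA per cell cannot be told apart.

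The counts depended on those libraries. Without them, members called higher and lower in WT were 18 and 2 in PFC, 21 and 0 in SSC, 14 and 1 in HP, 14 and 0 in STR, 13 and 2 in TH, and 12 and 0 in SN. All genes were then called at 20.1%, 21.3%, 18.7%, 13.2%, 23.1% and 24.7%, in the same order. Without the doubted libraries TH had 6 and 1 (15.6% of all genes called), SN 3 and 0 (17.3%), and STR 11 and 0 (17.7%). Single libraries mattered as well, and the following moved a count of members higher or of all members called by over 1.5 times. PFC had 13 and 1 without WT 914 of 4 weeks, 3 and 2 without WT 913 and 3 and 1 without WT 4 of 12 weeks. SSC had 11 and 0 without WT 142 or WT 914 of 4 weeks. HP had 6 higher without WT 914 of 4 weeks, and 7 without WT 1 or WT 5 of 12 weeks. STR had 5 higher without WT 42 of 4 weeks or WT 4 of 12 weeks, and 6 without WT 1 or WT 3 of 12 weeks. It had 6 and 1 without WT 142, 5 and 2 without WT 913 and 4 and 1 without WT 2. TH had 5 and 1 without WT 1 of 12 weeks, 7 and 2 without WT 2 and 4 and 2 without WT 4. SN had 0 called without WT 1, 2, 4 or 5 of 12 weeks. At 4 weeks it had 3 and 1, with a median of 0.07, without WT 92, 1 and 5 without WT 142 or WT 913, and 1 and 2 without WT 914. In these fits all genes were called at 22.5% to 23.2% in SSC, 17.2% to 19.6% in TH and 12.1% to 21.7% in SN. The shares for the fits in PFC, HP and STR are not given here. Whether fewer or more genes were called in general there cannot be read from these counts.

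The same comparison was made in HET and KO. In HET the members called higher and lower were 4 and 1 in PFC (13.9% of all genes called), 14 and 0 in SSC (25.3%), 7 and 1 in HP (14.3%), 9 and 0 in STR (14.8%), 5 and 2 in TH (15.5%) and 0 and 1 in SN (8.79%). In KO they were 6 and 0 in PFC (10.7%), 5 and 1 in SSC (25%), 4 and 1 in HP (20.4%), 5 and 2 in STR (25.4%), 12 and 4 in TH (21.7%) and 1 and 0 in SN (10.8%). Without the doubted libraries SN in KO had 10 and 0 (22.9% of all genes called), TH 9 and 4 (25.5%) and STR 3 and 2 (13.8%). In HET, SN then had 3 and 2 (22.6%), TH 5 and 2 (19.1%) and STR 13 and 0 (18.1%). Single libraries again moved these counts. In PFC, HET had 10 and 0 without HET 941 of 4 weeks and between 1 and 3 higher without HET 11, 162 or 53 of 4 weeks or any library of 12 weeks, and KO had 1 or 2 higher without KO 161 of 4 weeks or KO 2 or 5 of 12 weeks. In SSC, HET had 9 higher without HET 1 of 12 weeks, and KO 9 without KO 12 or KO 163 of 4 weeks and 3 without KO 161. In HP, HET had 4 or 5 higher without HET 4 or HET 1 of 12 weeks, and KO 15 without KO 51 of 4 weeks and 7 without KO 2 of 12 weeks. In STR, HET had 5 higher without HET 22 of 4 weeks or HET 3 of 12 weeks, and KO 13 and 3 without KO 12 of 4 weeks and 3 and 2 without KO 163 or KO 51. In TH, HET had 2 or 3 higher without HET 162, 93 or 931 of 4 weeks or HET 2, 4 or 5 of 12 weeks. KO in TH had 5 or 6 higher without KO 163 or 51 of 4 weeks or KO 3 or 4 of 12 weeks. In SN 0 were called in HET without HET 22 of 4 weeks or HET 2 of 12 weeks, and in KO without KO 161 or 932 of 4 weeks or KO 4 or 5 of 12 weeks. In these fits all genes were called at 21.8% to 22.8% in SSC, 11.1% to 15.2% in TH of HET, 16.9% to 20.5% in TH of KO and 5.58% to 9.79% in SN. Those of PFC, HP and STR are again not given, which limits the reading of their counts in the same way. Over the 18 comparisons there were 113 calls higher and 20 lower. Of all genes, 2.86% to 13.5% were called higher and 5.23% to 13.9% lower, depending on the comparison. Psmd1, Psmd10 and Psmd12 had values above 0 in all 18, and Psmd2 and Psmd11 below 0 in all 18. Without the libraries with few whole numbers there were 244 and 23 calls, beside 8.92% to 30.3% of all genes called in either direction. HET then had 17 and 1 in PFC (16.3%), 23 and 1 in SSC (30.3%) and 8 and 2 in HP (15.4%). It had 11 and 0 in STR (17.6%), 4 and 1 in TH (8.92%) and 4 and 2 in SN (14.9%). KO had 18 and 1 in PFC (14.9%), 16 and 1 in SSC (21.8%) and 15 and 0 in HP (18.9%). It had 15 and 3 in STR (29.2%), 11 and 4 in TH (22.5%) and 10 and 2 in SN (25.5%). In these fits without the libraries with few whole numbers, 19 members were above 0 in all 18, while Psmd2 and Psmd11 stayed below 0 in all 18. The 10 members never called with all libraries were Psma5, Psma7, Psmb3, Psmb4, Psmb5, Psmb7, Psmc3, Psmd4, Psmd6 and Psmd8.

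Psmd10 encodes gankyrin, a chaperone that holds an ATPase of the base during assembly of the 19S particle. In PFC of WT mice it stood at 9.67, 9.73, 9.80, 10.1 and 10.4 CPM at 4 weeks and at 11.0, 12.5, 13.3, 13.5 and 14.1 CPM at 12 weeks. The 2 ages did not overlap, and the log2 difference was 0.38 ± 0.08 (adjusted p = 0.000817). In STR it rose by 0.39 ± 0.09, in TH by 0.32 ± 0.08, in SSC by 0.30 ± 0.08 and in HP by 0.23 ± 0.07. The call for Psmd10 was lost in STR without the libraries with few whole numbers (0.30, adjusted p = 0.0558), in TH without the doubted libraries (0.29, adjusted p = 0.0574) and in HP without WT 1 of 12 weeks (0.19, adjusted p = 0.0662). In SN, where WT 92 had 19.8 CPM and the other 4-week libraries 11.4 to 12.5, the difference was 0.17 ± 0.11 (adjusted p = 0.314). Without WT 92 it was 0.33 (adjusted p = 0.0033). Over all genotypes Psmd10 was called higher in 13 of 18 comparisons. The other chaperone genes were called less widely, Psmd5 in 6 and Psmd9 in 2.

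Psmd2, which encodes a docking scaffold for ubiquitin receptors, moved the other way. Its level in PFC of WT mice was 260, 270, 274, 293 and 387 CPM at 4 weeks and 220, 229, 239, 246 and 247 CPM at 12 weeks, with no overlap, and the difference was -0.33 ± 0.08 (adjusted p = 0.00555). It fell by 0.22 in SSC, 0.16 in TH and 0.43 in SN on the log2 scale, but each of these calls was lost under some alternatives. Without the libraries with few whole numbers Psmd2 differed by -0.08 in SSC (adjusted p = 0.284), -0.11 in SN (adjusted p = 0.191) and -0.17 in TH (adjusted p = 0.00493), and in PFC by -0.21 (adjusted p = 0.00184). In SN it was -0.19 without WT 92 alone (adjusted p = 0.06). The call was lost in 7 of 11 fits that left out 1 library in TH, 5 of 11 in SN and 3 of 10 in SSC. The values in HP, -0.13 ± 0.05 (adjusted p = 0.11), and STR, -0.19 ± 0.07 (adjusted p = 0.0718), did not pass. Psmd2 was called lower in 10 of 18 comparisons. Psmd11 fell in WT in PFC, by 0.17, a call lost in 5 of 10 fits that left out 1 library, and in TH, by 0.16, and was called lower in 5 of 18. Psmd3 fell in SN of WT mice by a log2 difference of -0.52 (adjusted p = 0.0313), with -0.17 without WT 92, where it still passed (adjusted p = 0.0375), and -0.14 without all libraries with few whole numbers (adjusted p = 0.0985).

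Among the other 19S genes, Psmd7 was called higher in 11 of 18 comparisons and Psmd1, the second scaffold of the base, in 10. In WT Psmd1 rose by 0.26 ± 0.06 in SSC, 0.23 ± 0.05 in HP, 0.26 ± 0.05 in STR and 0.15 ± 0.05 in TH. Psmd12, a lid subunit, was called in 8, and the ATPase genes Psmc5 and Psmc6 in 6 each. Of the core genes Psmb6 was called in 10, with 0.26 ± 0.07 in SSC, 0.22 ± 0.05 in HP and 0.23 ± 0.07 in TH of WT mice, while Psmb5 and Psmb7 were called in none. Of all genes, 6.86% to 13.5% were called higher and 9.41% to 13.7% lower with age, depending on the WT region, and the list counts below are read beside these shares. Counted over the 6 WT regions by role, 3 of 46 tested values of alpha genes were called higher, 7 of 42 of constitutive beta genes, 8 of 36 of ATPases, 11 of 66 of the other 19S subunits and 9 of 18 of the chaperones. The 19S subunits other than the ATPases also had 7 called lower, and the other groups had 0. The share of alpha genes called higher was 6.52%, below that range.

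The immunoproteasome genes had larger, less certain differences with age. Psmb8 rose in STR of WT mice by 0.60 ± 0.21 (adjusted p = 0.0446) and Psmb9 in TH by 0.87 ± 0.31 (adjusted p = 0.0402). Leaving out 1 library lost the Psmb8 call in 8 of 10 fits (adjusted p from 0.0305 to 0.115) and the Psmb9 call in 7 of 11 (adjusted p from 0.00968 to 0.0937). Without the doubted libraries Psmb8 had 0.53 (adjusted p = 0.094), and without those with few whole numbers 0.49 (adjusted p = 0.127). With no filter on low counts neither passed. Psmb8 was above 0 in 17 of 18 comparisons and Psmb9 in 16 of 18, and each was called in 3. Psmb10 rose in TH of WT mice by 0.25 ± 0.07 (adjusted p = 0.014) and was called in 4 of 18. Markers of microglia, which carry the immunoproteasome, had 18 of 66 tested values called higher and 4 lower over the 6 WT regions, beside the 6.86% to 13.5% and 9.41% to 13.7% of all genes. In TH their mean log2(CPM + 1) was 4.44 to 4.73 in the WT libraries at 4 weeks and 4.72 to 4.95 at 12 weeks, and in STR 4.88 to 5.22 and 4.96 to 5.21. Oligodendrocyte markers had 0 higher and 36 lower of 48. The part of these cells in the age results was not tested.

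**Figure D4:**
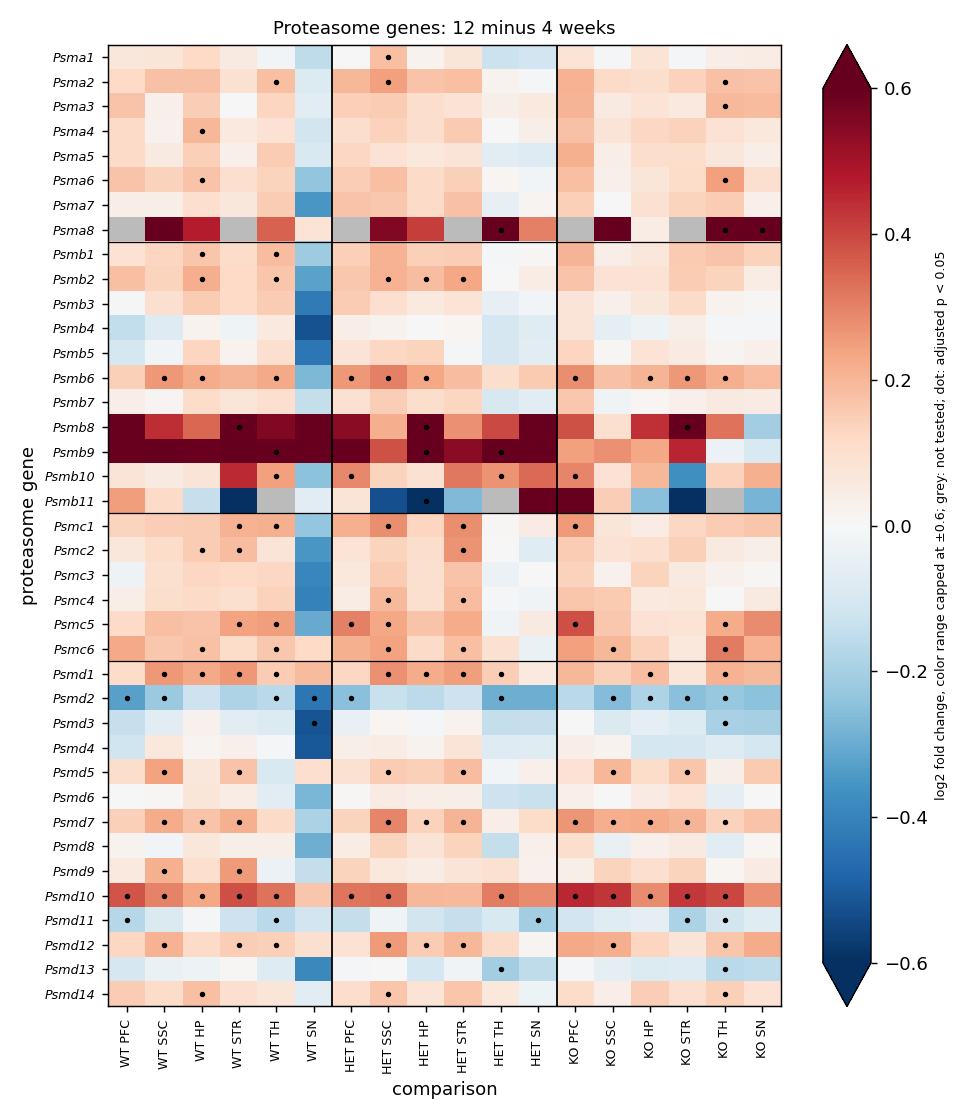
Log2 difference between 12 and 4 weeks of each proteasome gene, by region and genotype, from edgeR. Genes run down the plot by family, colours are capped at ±0.6 and dotted cells passed an adjusted p of 0.05. Psmd10 is above 0 and Psmd2 below 0 in all 18 columns.

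Genes of the same pathway outside the name rule were counted from lists. Of 96 tested values of 16 other proteasome genes (activators, assembly factors and further subunits) 25 were called higher and 4 lower with age over the 6 WT regions, in each of which at most 13.5% of all genes were called higher and at most 13.7% lower. Psme2, a subunit of the 11S activator that pairs with the immunoproteasome, rose in 5 of 6 regions, by 0.51 in PFC, 0.43 in SSC, 0.25 in HP, 0.52 in STR and 0.45 in TH. Ubiquitin ligases, deubiquitinases and shuttles of the proteasome had 1 higher and 4 lower of 66, and ubiquitin and E1 genes 2 and 5 of 36. Genes of the NFE2L1 pathway and the p97 segregase had 12 and 12 of 66. In KO against WT none of these lists held a called gene in any of the 12 comparisons.

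Across regions of WT mice the thalamus had the most members called higher at 12 weeks. At 4 weeks this was the substantia nigra with all libraries, and the thalamus without the doubted libraries. Each region was compared with the mean of the other 5. Of all genes, 34.1% were called higher in TH and 35.7% in SN at 12 weeks, and 25.9% and 31.4% at 4 weeks. At 12 weeks the members called higher and lower were 26 and 2 in TH, beside 66.9% of all genes called, 16 and 6 in SN (67.8%), 12 and 15 in STR (67.3%), 5 and 11 in HP (54.4%), 3 and 17 in SSC (56.4%) and 2 and 18 in PFC (57%). The shares of members were near or under the background of genes that differ between regions in either direction, and the medians were 0.19 in TH, -0.07 in SSC and in PFC, and -0.04 in STR. In TH, 7 of 8 alpha genes, 7 of 7 constitutive beta genes and 6 of 6 ATPases were called higher, but of 11 other 19S subunits 4 were higher and 1 lower. The spread was small for most genes: the ratio of the highest to the lowest region mean over the 34 constitutive genes was 1.09 to 1.76, with a median of 1.30. TH was highest for 18 of the 34, SN for 7 and STR for 7.

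At 4 weeks SN had 23 higher and 1 lower, beside 59% of all genes, TH 8 and 1 (48.1%), STR 2 and 3 (52.9%), HP 1 and 6 (36.4%), SSC 1 and 4 (38.4%) and PFC 1 and 0 (43%). Without the doubted libraries SN had 9 and 2, beside 57.9% of all genes, and TH 18 and 0 (54.8%). STR then had 5 and 7 (60%), HP 1 and 13 (49.4%), SSC 1 and 10 (50.4%) and PFC 2 and 1 (54.8%). Without the libraries with few whole numbers TH had 32 and 1 (61.7%) and SN 16 and 1 (55.9%), and TH then had more members higher than SN. The other regions then had mostly lower calls. These were 4 and 13 in STR (56.3%), 4 and 10 in HP (45.6%), 1 and 17 in SSC (39.7%) and 2 and 11 in PFC (51.9%).

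**Figure D5:**
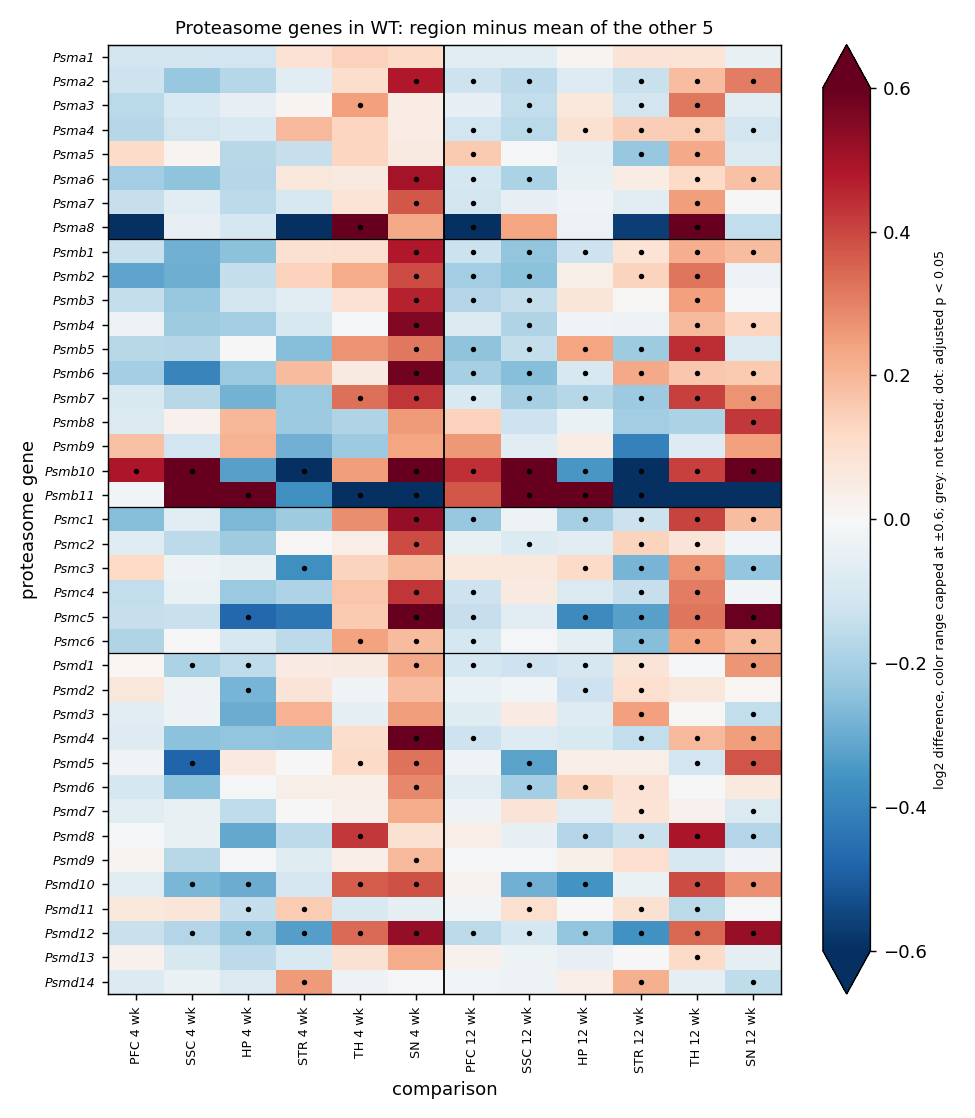
Log2 difference of each proteasome gene between a region and the mean of the other 5 in WT mice, at 4 and 12 weeks, from edgeR. Genes run down the plot by family, colours are capped at ±0.6 and dotted cells passed an adjusted p of 0.05. Psmb10 in STR is the lowest value at both ages, and TH at 12 weeks is mostly above 0.

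Psmb10 had the widest regional range of the members other than Psmb11, which was barely detected. At 12 weeks the WT libraries in STR had 5.37, 5.71, 5.97, 6.79 and 7.68 CPM, and its level was 14.7 ± 1.8 (SD, n = 5) in HP, 22.9 ± 1.9 in TH, 23.3 ± 2.1 in PFC, 25.7 ± 1.9 in SN and 26.7 ± 1.0 in SSC. STR did not overlap any other region, nor did HP, while the other 4 regions overlapped in part. Against the mean of the other regions STR was at -1.80 ± 0.08 (adjusted p = 2.07e-18) and at 4 weeks at -2.16 ± 0.22 (adjusted p = 1.12e-09). SSC was higher by 0.69 ± 0.06 at 12 weeks and 0.77 ± 0.17 at 4 weeks, PFC by 0.44 ± 0.06 and 0.49 ± 0.18, and SN by 0.61 ± 0.06 and 0.98 ± 0.16. At 4 weeks SN held 1 library at 75.5 CPM, WT 92, and 5 between 20.1 and 22.7 CPM. Without WT 92 the 4-week difference of Psmb10 in SN was 0.51, and still passed.

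Relative to Psmb7, the subunit it replaces, Psmb10 stood per kilobase at 6.21% ± 0.94 (SD, n = 5) in STR of WT mice at 12 weeks, 13.9% in HP, 15.5% in TH, 18.8% in SN, 21.1% in PFC and 25.9% ± 1.11 in SSC. At 4 weeks the order was nearly the same, with 4.75% in STR, 14.0% in TH, 14.3% in HP, 18.8% in SN, 20.96% in PFC and 25.3% in SSC. Psmb8 stood at 1.04% to 1.99% of Psmb5 over the regions at 12 weeks and 0.76% to 1.13% at 4 weeks. Psmb9 stood at 0.54% to 1.01% of Psmb6 at 12 weeks and 0.39% to 0.65% at 4 weeks.

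Other members had regional patterns that were called at both ages. Psmc5 was low in HP, by -0.38 ± 0.04 at 12 weeks and -0.47 ± 0.17 at 4 weeks. The 4-week call was lost in 5 of 33 edgeR fits that left out 1 library (adjusted p up to 0.0986). Under other settings the 4-week value lay between -0.48 and -0.27. At 4 weeks the lowest mean of Psmc5 was in STR, at 108 CPM. At 12 weeks the WT libraries had Psmc5 at 118 to 124 CPM in HP, 113 to 141 in STR, 132 to 158 in PFC, 142 to 152 in SSC, 179 to 194 in TH and 203 to 224 in SN. TH and SN stood apart from each other and from all other regions, while STR overlapped HP and PFC, and PFC overlapped SSC. Psmd5, a chaperone of the base, was low in SSC, by -0.32 ± 0.04 and -0.48 ± 0.05. Psmd14, the deubiquitinase of the lid, was high in STR, by 0.21 ± 0.04 and 0.26 ± 0.09, and Psmd12 was low there, by -0.36 ± 0.04 and -0.33 ± 0.07. In TH 7 members were called higher at both ages, Psma3, Psma8, Psmb7, Psmc6, Psmd8, Psmd10 and Psmd12, of which Psmb7 was higher by 0.41 ± 0.03 and 0.33 ± 0.11. In SN 15 members were called higher at both ages, of which 9 were still called higher at 4 weeks without the doubted libraries (Psma2, Psmb1, Psmb10, Psmc5, Psmd1, Psmd4, Psmd5, Psmd10 and Psmd12). In PFC Psmb10 was the 1 member called at both.

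The tissue-restricted genes were close to the detection limit but not evenly spread. Psma8 was higher in TH, by 1.24 ± 0.25 at 12 weeks and 1.32 ± 0.29 at 4 weeks, with 0.412 to 0.543 CPM in the 5 WT libraries at 12 weeks and at most 0.402 in the libraries of the other regions. Psmb11 was higher in HP, by 1.46 ± 0.32 at 12 weeks and 1.5 ± 0.26 at 4 weeks, with 0.333 to 0.567 CPM at 12 weeks, a range that SSC and PFC libraries overlapped.

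Some counts may hold reads of neighbouring or copied genes, since the strand setting of the counting was not given in the sources used here. In the GENCODE M21 annotation Psmb9 overlaps Tap1, Psmb8 overlaps Gm20496, Psmd1 overlaps Htr2b and Gm21972, Psmb7 overlaps Nek6, Psmc3 overlaps Slc39a13 and Psmd13 overlaps Sirt3. Psmb5, Psmb6 and Psmb7 have named pseudogenes. Values of these genes are uncertain to that extent.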

How the data were processed

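RNA of each brain area was sequenced from stranded mRNA libraries made from 200 ng of total RNA, per the labels' protocols. The authors deposited expected counts per gene. The submitters' processing notes name Salmon and the build mm10, and their settings were not given in the sources used here. The values were rounded to whole numbers. Genes low in all groups of a comparison were dropped with edgeR's filterByExpr, and libraries were scaled by TMM.

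Comparisons used edgeR 4.0.16 quasi-likelihood tests in R 4.3.3, with Benjamini-Hochberg adjustment over all genes tested and a threshold of 0.05. Genotypes were compared within region and age, ages within region and genotype, with KO effects compared between ages in the same fit. WT regions were compared within age, and all regions jointly for the mean KO effect and for STR minus the others. The standard error is the fold change divided by the root of F. Levels are CPM, with a pseudocount of 1 on the log scale. Per-length levels divide by the longest protein-coding transcript in GENCODE M21. Doubted libraries are 4-week libraries of STR (KO 51, 161 and 163, WT 92), TH (WT 913, 914 and 23) and SN (WT 92 and 42, KO 44 and 91) taken as in an earlier analysis of these data, mostly for their region markers.

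Members and gene lists were chosen with earlier results of these data known. Named genes are the catalytic, inducible and tissue-restricted members, Psma7, Psmc5 and Psmd11, every member called between genotypes, the 3 with the largest change in STR at each age, the 2 with the largest rise and fall with age in WT per region, and the largest difference of each sign per region called at both ages. Others named were chosen after their values were seen. Alternatives were DESeq2 1.42.0, other scaling, no filter, a block on library number in limma-voom 3.58.1, covariates, and leaving out libraries. The steps were tested on simulated counts.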

Additional observations from a re-analysis of the deposited data

Results flagged for a closer look

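Each of the 36 groups was examined for a single library far from the rest in 3 measures, the mean level of the 34 constitutive genes, Psmb10 and Psmd10. Of these 108 checks 9 found one, and 6 of the 9 came from libraries with few whole numbers, of which SN WT 92 was found 3 times. Chance alone gives about 1 in 20. For the mean log2(CPM + 1) of the constitutive genes these were PFC HET 941 at 4 weeks, with 6.38 where the next library had 6.12, PFC WT 914 at 4 weeks, with 6.46 and 6.12, SN WT 92 at 4 weeks, with 7.37 and 6.47, and SSC KO 4 at 12 weeks, with 6.30 and 6.19. In SN WT 92, 33 of the 34 constitutive genes were above the mean of the other WT libraries, by a median of 1.19 on the log2 scale.

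For Psmb10 the libraries were SN WT 92 at 4 weeks, with 75.5 CPM where the next had 22.7, STR WT 92 at 4 weeks, with 6.92 and 4.63, and TH KO 932 at 4 weeks, with 22.3 and 20.7. For Psmd10 they were SN WT 92 at 4 weeks, with 19.8 CPM and 12.5, and STR KO 4 at 12 weeks, with 16.8 and 13.5.

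The KO effect on Psmb10 at 4 weeks was larger in STR than in the mean of the other regions by 1.03 ± 0.22 on the log2 scale (adjusted p = 0.00253, edgeR). 3 of 5 striatal KO libraries lay above all striatal WT libraries, and their cortical marker scores were 5.60 to 6.51.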

How the results depend on the processing

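Counts here are gene comparisons called at an adjusted p of 0.05, summed over regions. KO against WT gave 0, with 2 under DESeq2, 3 without the libraries with few whole numbers and 1 with a covariate for them. The 3 were in STR at 4 weeks, where 7.37% of all genes were then called. HET against WT gave 0 under every alternative. Age in WT gave 48, and 97 without the libraries with few whole numbers. Age in HET and KO gave 85, and 170 without them. The change of the KO effect with age gave 0, and 1 without them, Psmb10 in STR at -1.15 (adjusted p = 0.0288), beside 1.59% of all genes. Regions gave 51 at 4 weeks, and 112 without them, and 133 at 12 weeks, with 127 to 137 under the alternatives. The mean KO effect over regions at 4 weeks gave 1, with 0 without a filter, 0 under the block on library number and 2 without the libraries with few whole numbers (beside 2.34% of all genes). STR minus the other regions at 4 weeks gave 1, with 0 without the doubted libraries and 2 without those with few whole numbers (beside 7.09% of all genes). Leaving out 1 library at a time gave 0 to 1 for KO, 0 for HET, 40 to 59 for age in WT, 77 to 95 for age in HET and KO, 0 for the change with age, 43 to 66 and 128 to 137 for regions at 4 and 12 weeks, 0 to 1 for the mean KO effect and 0 to 1 for STR minus the others. Psmb11 in STR at 4 weeks reversed from 0.58 to -1.35 without the doubted libraries and to -0.11 with the cortical score as covariate. Of the named genes' values under other settings, 1071 kept direction and side, 90 lost the call, 14 gained it and 2 reversed. Causes were not tested.

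At 12 weeks libraries of 1 region with the same number and different genotypes were compared in 30 sets. Their deviations had a mean r per set of -0.09 to 0.70. The sources used here do not say whether a number marks a pair, and the main tests did not use it as pairing. With the replicate block the counts were 0 for KO, which was run at 12 weeks only, 51 for regions at 4 weeks and 137 at 12 weeks. At 4 weeks they were 0 for the mean KO effect over regions and 1 for STR minus the others. Leaving out all 12-week libraries in turn in the joint fit was not run. At the lowest depth, 20794652 counts, Psma8 and Psmb11 are the members whose differences the depth limits most. Psmb9 and Psmb8 were also low, with medians of 0.581 and 1.04 CPM per kilobase in WT.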
